A study of Mus musculus with 24 samples.

Results

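The 12 mammary tumours labelled KO in a study of 24 are described here by how they differ from one another. They were chosen by title alone, KO_1 to KO_12, so 12 of 24 libraries are members and no measured value chose them. All 24 tumours arose in MMTV-PyMT mice, in which a promoter active in the mammary epithelium drives the polyoma middle T oncogene. The study crossed that strain with mice lacking or carrying Nr0b2, giving NR0B2-/- PyMT+ tumours (genotype SHP KO) and NR0B2+/+ PyMT+ tumours (SHP WT, titled WT_13 to WT_24). Tumours were taken at 2000 mm3, frozen and homogenised whole, so each library mixes RNA of tumour cells with that of any other tissue in the piece. No age, treatment or batch is labelled. The labels do not say that each tumour came from its own mouse, so p-values speak of the spread over these samples, which may be partly technical.

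Libraries labelled KO held 18789250 reads (KO_12) to 30403961 reads (KO_1). At that depth 3 reads correspond to 0.0987 to 0.16 CPM (reads of a gene scaled to a common library size). Nr0b2, the gene of the nuclear receptor SHP (chr4:133280687-133283997, plus strand, GRCm39), had 3 reads in KO_4, a median of 7 and 71 in KO_12, against 0 in every WT library but WT_24, which had 1. These reads go against the label. Counts per gene cannot tell a targeted allele that is still transcribed from an intact one, so KO and WT stand below for the labels only. Markers of epithelium were present in every library. Epcam, the epithelial adhesion molecule, ran from 872 CPM in KO_11 through a median of 1077 to 1190 in KO_9, and the keratin genes Krt8 and Krt18 never fell below 762 CPM. Values are shown with and without KO_7, KO_11 and KO_12, called the 3 libraries below. KO_12 stood furthest apart, with a median correlation of 0.90 with the other 11 across genes, against 0.92 for KO_11 and 0.95 to 0.97 for the rest. In KO_12 short genes were high relative to long ones (Spearman correlation of deviation with gene length -0.499), against -0.0058 to 0.26 in the others, and its TMM scaling factor was the lowest, at 0.847. Whether RNA quality or library making had a part in what sets KO_12 apart was not tested.

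A mammary tumour grows inside the fat pad, next to ducts, skin, body-wall muscle and, in some glands, a lymph node. Luminal epithelial cells can make milk proteins under prolactin and glucocorticoid, and hormone-sensing luminal cells carry oestrogen and progesterone receptors. Myoepithelial cells around the ducts contract with smooth muscle actin and myosin. Gene programmes of these kinds can therefore differ from tumour to tumour in bulk RNA, where fewer cells of a type and less RNA per cell cannot be told apart.

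Among 14051 genes with at least 1 CPM in at least 6 of the 12 libraries, the spread of most genes was small: the median standard deviation (SD) of log2 CPM was 0.33. Variance depends on the level of a gene, so each gene was ranked by its excess, the log2 of its variance minus a smooth trend on the mean. An excess of 1 is a doubling of the variance over other genes of that level. The 500 genes of largest excess, 3.56% of those ranked, form the set described below. Rank 500, Siglec1, and rank 501, B4galnt3, both had an excess of 2.94. Protein-coding genes made up 490 of the 500.

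**Figure D1:**
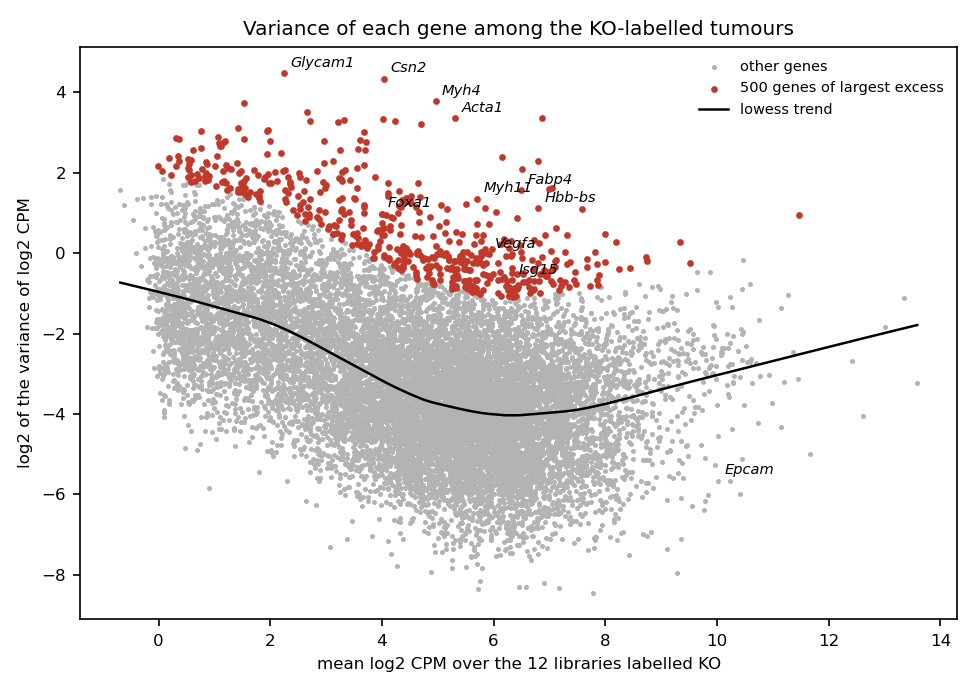
Log2 variance of log2 CPM (vertical) against mean log2 CPM (horizontal) for 14051 genes in the 12 libraries labelled KO, with the lowess trend as a line. The 500 genes of largest excess (red) include milk, muscle and fat genes, while Epcam lies below the trend.

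The 20 genes at the head of the ranking came from milk, skeletal muscle and fat, with 3 others. Muscle gave 10 of them (Myh4, Acta1, Atp2a1, Tnnt3, Tnnc2, Ckm, Myh1, Myl1, Tnni2 and Pvalb), milk 4 (Csn2, Csn1s1, Csn1s2a and Glycam1), and fat-associated genes 3 (Fabp4, Car3 and Cfd). The other 3 were Gm40892, 2310057J18Rik and Scgb1b27, the last a gene of the secretoglobin family. All 20 were also among the 500 of largest excess without KO_7, KO_11 and KO_12. Of the whole 500, 341 (68.2%) were in both rankings.

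Skeletal muscle genes had the largest median excess of the lists and were tightly linked. Of 22 sarcomere and muscle enzyme genes, 19 passed the filter and 18 were among the 500. Their median excess was 5.50, against 0.01 over all genes that passed. Acta1, skeletal alpha-actin (chr8:124618497-124621514, minus strand, GRCm39), ran from 0.26 CPM in KO_10 through a median of 55.6 to 1534 in KO_11. KO_3 at 332 CPM and KO_8 at 286 came next, and KO_9 at 2.91 was second lowest. Myh4, the fast myosin heavy chain, gave the same order at both ends: 1486 CPM in KO_11, 375 in KO_3, 329 in KO_8, 2.27 in KO_9 and 0 in KO_10. The calcium pump Atp2a1 of fast fibres reached 1208 CPM in KO_11, and the creatine kinase gene Ckm 467. Between pairs of the 19 genes the median correlation over the 12 tumours was 0.95. It was 0.96 without KO_7, KO_11 and KO_12 and 0.94 in the 12 WT libraries, whose values the ranking did not use. The summed CPM of the list ran from 37.0 in KO_10 through 341 to 8714 in KO_11, a 236-fold range, and the WT libraries also ranged widely, from 0.50 to 155.6 CPM for Acta1. The other 3 of the 22 failed the filter and, at low values, did not peak in KO_11. Mylpf was at most 0.31 CPM (KO_3), Myh7 at most 0.60 (KO_1) and Tnnt1 at most 1.89 (KO_12). Of those that passed, 18 were also among the 500 without the 3 libraries.

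Milk protein genes held the gene of largest excess, Csn2, and 8 of 13 were among the 500. Of 14 milk and alveolar genes, 1 failed the filter. The 8 were Csn2, Csn1s1, Csn1s2a, Csn1s2b, Glycam1, Btn1a1, Wap and Lao1, while the casein gene Csn3 and the whey gene Lalba were not among them. The following stretches upstream of 3 of them are shown because the letters TTCNNNGAA, the palindrome bound by STAT5 in milk genes, were found there. They are the 250 bases before the RefSeq start in GRCm38.p6, at chr5:87699426-87699675 (minus strand) for Csn2, chr5:87665958-87666207 (plus strand) for Csn1s1 and chr15:103565082-103565331 (minus strand) for Glycam1. Capitals mark the match.
Csn2: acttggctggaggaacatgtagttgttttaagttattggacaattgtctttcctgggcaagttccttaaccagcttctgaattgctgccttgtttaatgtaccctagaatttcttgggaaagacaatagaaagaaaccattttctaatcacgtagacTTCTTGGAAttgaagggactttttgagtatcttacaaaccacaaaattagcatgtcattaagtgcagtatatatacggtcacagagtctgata
Csn1s1: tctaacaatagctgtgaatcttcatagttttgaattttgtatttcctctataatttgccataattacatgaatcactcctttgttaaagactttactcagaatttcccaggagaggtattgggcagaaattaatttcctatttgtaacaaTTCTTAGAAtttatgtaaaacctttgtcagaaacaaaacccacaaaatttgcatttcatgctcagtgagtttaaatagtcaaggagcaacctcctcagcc
Glycam1: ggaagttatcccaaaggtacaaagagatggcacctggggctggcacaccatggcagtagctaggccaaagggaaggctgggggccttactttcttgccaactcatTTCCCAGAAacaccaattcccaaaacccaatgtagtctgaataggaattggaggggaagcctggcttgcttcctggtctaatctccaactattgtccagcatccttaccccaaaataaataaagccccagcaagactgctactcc
The letters, the same on both strands, were in 3 of the 8 milk genes with a RefSeq promoter (also searched: Csn1s2a, Elf5, Lalba, Lao1 and Wap) and in 7.02% of 32851 promoters of that length. A match describes letters only and is no evidence of binding.

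Csn2, beta-casein, stood at 15781 CPM in KO_7 against a median of 15.9 and a lowest of 0.032 in KO_1. KO_12 was second at 332 CPM, and the highest WT library had 74.3. Csn1s1, an alpha-casein, reached 16078 CPM in KO_7, followed by 2044.5 in KO_12, 546 in KO_2 and 314 in KO_5, and was lowest in KO_1 at 12.7. Glycam1, a milk mucin, was at 9525 CPM in KO_7, at 118 in KO_11 and 94.3 in KO_12, and at most 13.3 in the other 9. KO_7 thus stood apart from the other 11 on all 3 genes. Wap, whey acidic protein, showed a smaller range, from 5.85 CPM in KO_4 through 18.4 to 256 in KO_7. Not all milk genes took part. Csn3, kappa-casein, was abundant in every tumour, from 8768 CPM in KO_11 through 11958 to 19541 in KO_9, and its excess was -1.45. Elf5, the alveolar transcription factor, ran only from 380 CPM in KO_3 to 583 in KO_7. The median correlation between pairs of the 13 genes was 0.46 over 12 tumours and 0.10 without the 3 libraries, against 0.33 in the WT libraries. The link between these genes was weaker without those libraries, yet 7 of them were among the 500 without them.

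**Figure D2:**
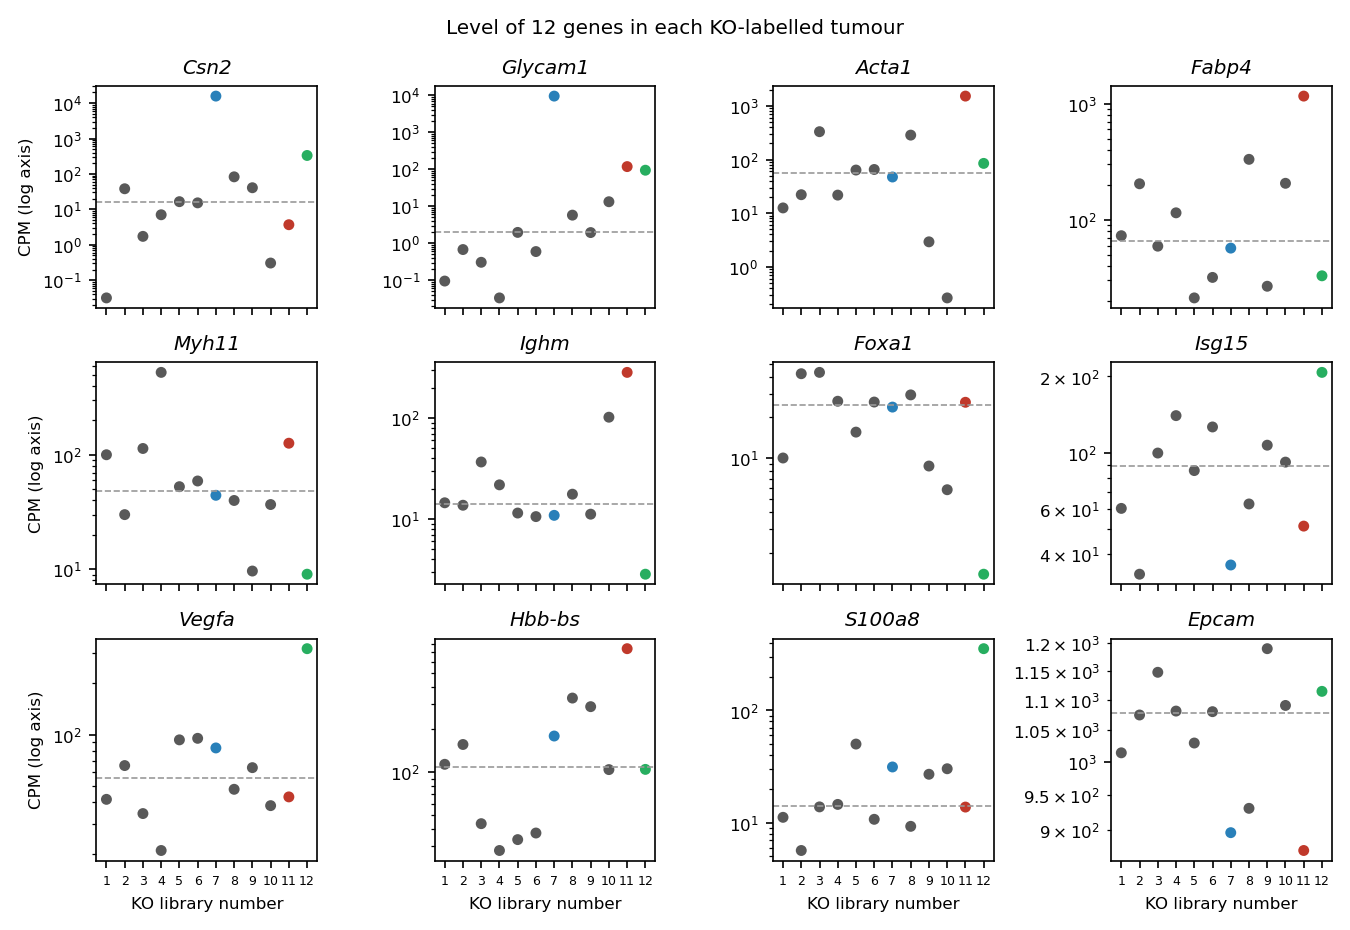
CPM (log axis, its range set for each gene) of 12 genes in the libraries KO_1 to KO_12, 1 point each, with the median as a dashed line. KO_7 is blue, KO_11 red and KO_12 green. Csn2 and Glycam1 peak in KO_7, Acta1, Fabp4, Ighm and Hbb-bs in KO_11, and Vegfa, S100a8 and Isg15 in KO_12, whereas Epcam stays between 872 and 1190 CPM.

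Fat genes formed the next programme, with 12 of 14 adipocyte genes among the 500 (all 14 passed, median excess 4.39). Fabp4, the adipocyte fatty acid binding protein, ran from 21.2 CPM in KO_5 through 66.1 to 1164 in KO_11. KO_8 followed at 332, then KO_10 at 206 and KO_2 at 204. Adipoq, the hormone adiponectin, ran from 2.96 CPM in KO_12 through 24.8 to 268 in KO_11. Cfd, the serine protease adipsin, ranged from 23.8 CPM in KO_12 to 1111 in KO_11. Pairs of the list correlated at a median of 0.91 with all 12, 0.91 without the 3 libraries and 0.92 in WT. Fat and muscle genes did not share all their peaks: KO_3, second for muscle, scored -0.08 on the fat list (mean centred log2 CPM of its members), and KO_10, lowest for muscle, scored 0.87.

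KO_11 alone held brown fat genes at a high level. Ucp1, the uncoupling protein that defines brown fat, was at 258 CPM there, 8.94 in KO_8, 2.92 in KO_5 and at most 0.32 in the other 9, so it failed the filter. Of 8 brown fat genes 5 passed. Cidea, a lipid droplet gene, stood at 98.8 CPM in KO_11 and at most 7.94 elsewhere, and Cox8b, a muscle and brown fat respiratory subunit, at 63.7 against at most 7.09. The 2 were among the 500 with all 12 libraries and neither was without the 3. Reads of mitochondrial genes also made up more of KO_11, 0.194% against 0.0507% to 0.0857% in the other 11 libraries. Their part in these results was not tested.

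Smooth muscle and myoepithelial genes scored highest as a list in KO_4, at 1.81, and lowest in KO_9, at -1.90. Of 10 listed genes 9 passed and 8 were among the 500, and 8 were among the 500 without the 3 libraries. Myh11, smooth muscle myosin, ran from 9.07 CPM in KO_12 and 9.67 in KO_9 through 48.5 to 523 in KO_4. Acta2, smooth muscle actin, ran from 32.2 CPM in KO_9 through 144 to 874 in KO_4. The basal keratin gene Krt5 was highest in KO_1 at 184 CPM, with KO_4 at 139 and KO_12 at 139, and lowest in KO_9 at 11.6. Krt14, its partner keratin, was highest in KO_12 at 413 CPM, where the contractile genes were low. The median pair correlation of the list was 0.64, 0.80 without the 3 libraries and 0.65 in WT, where all 9 genes were among the 500.

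Matrix genes of fibroblasts varied less but together. Of 14, all passed and 6 were among the 500 (Fbn1, Col5a1, Lum, Dcn, Mmp2 and Col6a1), with a median pair correlation of 0.81, 0.76 without the 3 libraries and 0.71 in WT. Col1a1, the chain of type I collagen, ran from 127 CPM in KO_12 through 414 to 740 in KO_7. KO_12 was lowest on this list, with a score of -1.48, and KO_11 highest at 0.88. Endothelial genes, 12 of 12 passing and 0 among the 500, had a median excess of 1.13.

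B and T cell genes were high in KO_10 and KO_11. Most B cell genes could not enter the ranking: 12 of 16 failed the filter because few libraries held them, and 11 of those 12 reached 1 CPM in at least 1 library. Cd79a, part of the B cell receptor, was at 39.2 CPM in KO_11, 19.7 in KO_10 and at most 0.47 in the other 10. Ms4a1, which encodes CD20, was at 50.6 and 19.96 CPM in those libraries and at most 0.47 elsewhere. Ighm, the immunoglobulin mu chain, passed the filter and ran from 2.84 CPM in KO_12 through 14.1 to 283 in KO_11, with KO_10 at 102. The WT libraries reached 47.8 CPM of Ighm. Cd3e, of the T cell receptor complex, was at 8.42 and 6.45 CPM in those libraries and at most 1.86 in the rest. Ccl21a, the chemokine of lymph node stroma, stood at 59.5 CPM in KO_11, 22.1 in KO_10, 15.3 in KO_3 and at most 5.15 in the other 9. Ccl19, another such chemokine, was at 2.88 and 1.18 CPM in KO_11 and KO_10 and at most 0.04 elsewhere. Of 10 lymph node stroma genes 4 passed and 2 were among the 500. Their median pair correlation was 0.41, 0.40 without the 3 libraries and 0.36 in WT. The list scored highest in KO_11 (2.74) and KO_10 (1.75), but its summed CPM was highest in KO_7, at 1885 against 655 in KO_11. Of 19 T cell genes 13 passed. Their median pair correlation was 0.83, 0.79 without the 3 libraries and 0.38 in WT.

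Macrophage genes shared part of the order of the lymphocyte genes: on the macrophage list KO_7 scored highest, at 0.76, then KO_11 at 0.42 and KO_10 at 0.27. Of 15 macrophage genes, all passed and 3 were among the 500. Spp1, osteopontin, ran from 944 CPM in KO_8 through 2210 to 19356 in KO_9, with KO_10 at 8680 and KO_7 at 8038. Gpnmb, a glycoprotein of lipid-laden macrophages, was highest in KO_7 at 162 CPM. Mast cell genes were tightly linked (5 of 10 passed, median pair correlation 0.94, 0.93 without the 3 libraries) with 0 among the 500. Cma1, a mast cell protease, was at 26.7 CPM in KO_11 and 1.71 to 7.40 in the other 11. S100a8, a calcium-binding protein of neutrophils that stressed keratinocytes also make, was at 355 CPM in KO_12, 50.2 in KO_5 and 5.65 to 31.4 in the rest. Its partner S100a9 reached 15.1 CPM in KO_12, whereas the neutrophil receptor gene Csf3r was lowest there, at 2.46 CPM. Haemoglobin genes, 4 of 8 among the 500 with 5 passing, moved almost as one, with a median pair correlation of 0.99 (0.99 without the 3 libraries, 0.86 in WT). Hbb-bs, an adult beta-globin, ran from 28.1 CPM in KO_4 through 109 to 740 in KO_11. KO_8 at 332 and KO_9 at 289 followed. In the WT libraries it ran only from 43.5 to 127 CPM, and 0 of the list were among the WT 500. Near-identical globin copies can share reads, so their separate values are uncertain.

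KO_12 was marked by hypoxia, metallothionein and squamous keratin genes. Of 15 hypoxia and glycolysis genes, all passed and 6 were among the 500, but 2 were without the 3 libraries. Vegfa, the angiogenic growth factor, ran from 20.9 CPM in KO_4 through 55.9 to 320 in KO_12, and the second library, KO_6, had 95.2. Slc2a1, the glucose transporter GLUT1, ran from 54.8 CPM in KO_8 to 312 in KO_12. Mt2, a metal-binding metallothionein, was at 973 CPM in KO_12 and at most 134 elsewhere. Krt6a, a keratin of wounded and squamous epithelium, was at 86.1 CPM in KO_12, 19.1 in KO_5 and 0.05 to 7.59 in the other 10. Krt16, its usual partner, failed the filter with 118 CPM in KO_12, 3.80 in KO_5 and at most 0.92 in the rest. WT libraries also reached 332 CPM of Vegfa, so the level in KO_12 lay within the WT range. These values come from the library with the fewest reads and the negative relation to gene length. Their part in the result was not tested.

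Epidermal and hair genes were high in only some of the tumours. Krt10, a keratin of the dry epidermis, was at 134 CPM in KO_1 and at most 10.3 in the other 11, and Krt1, its partner, at 96.5 CPM in KO_1, 7.31 in KO_12 and at most 2.69 elsewhere. Tchh, trichohyalin of the hair root sheath, was at 234 CPM in KO_12, 71.7 in KO_11, 56.3 in KO_5 and 43.3 in KO_1, and at most 14.3 in the other 8. The hair keratin gene Krt25 was at 33.5 CPM in KO_11, 29.3 in KO_12, 21.6 in KO_1 and 5.89 in KO_5, and at most 0.64 in the other 8. The same 4 tumours were thus high for both hair genes. Of 13 hair genes 4 passed and of 15 cornified genes 5, with 2 and 3 among the 500. The passing hair genes were weakly linked, with a median pair correlation of 0.23, -0.11 without the 3 libraries and 0.10 in WT. For the cornified genes these values were 0.45, 0.48 and 0.34. The 8 hair genes that failed the filter have no part in these values. Of those, Krt25, Krt27, Krt28 and Krt73 reached 1 CPM only in KO_1, KO_5, KO_11 and KO_12. Krt72, Krt35 and Hoxc13 did so in only some of these 4 tumours, and Padi3 also in KO_7. Bpifa2, a salivary secretory gene, reached 3.79 CPM in KO_4 and at most 0.60 elsewhere, and Dcpp3, a salivary protein gene, 7.73 CPM in KO_3 and at most 0.09 elsewhere.

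**Figure D3:**
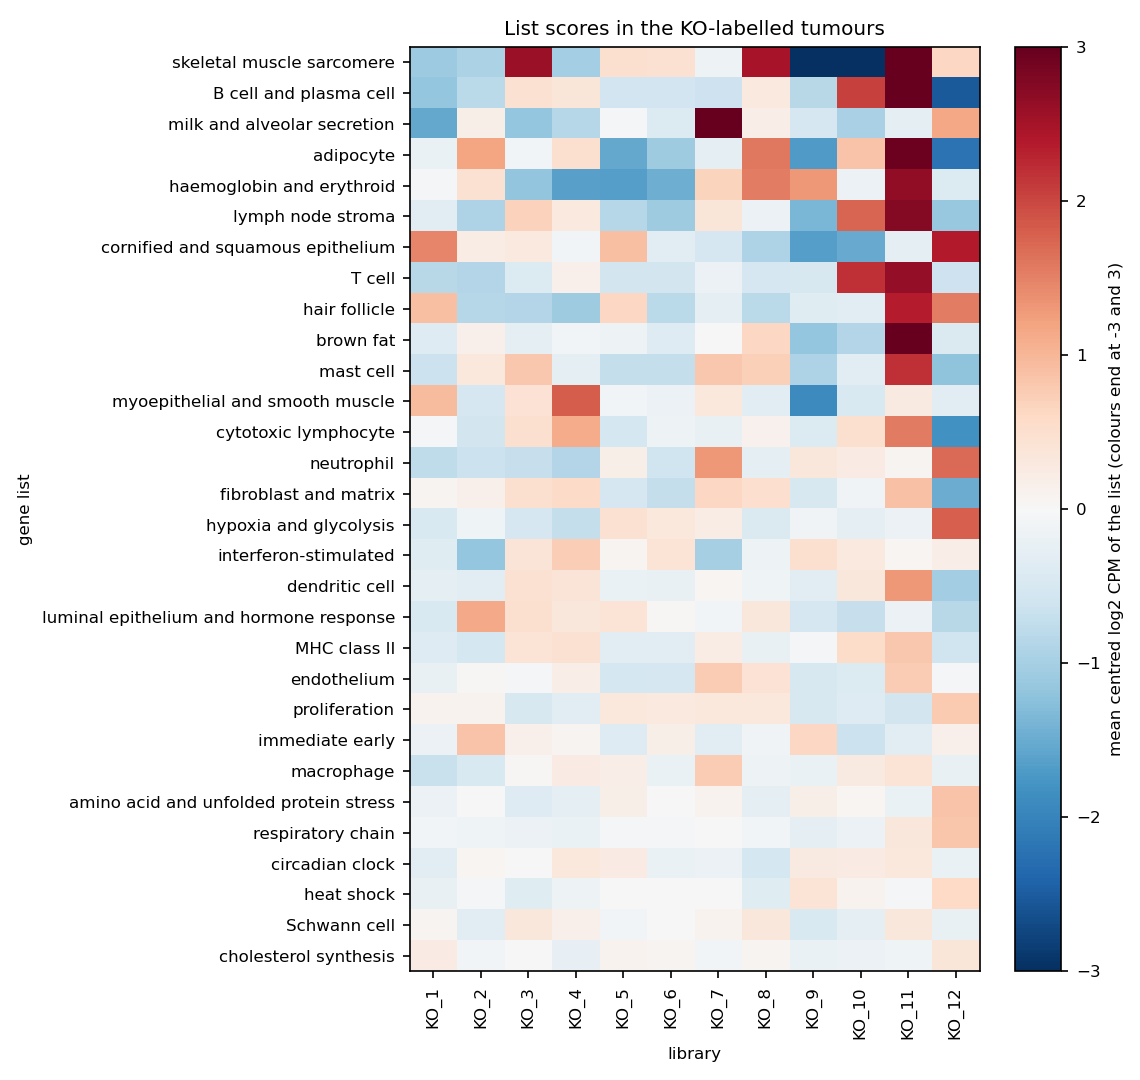
Score of 30 gene lists (rows, by SD of the score) in the 12 libraries labelled KO (columns). Colour gives the mean centred log2 CPM of the members that passed the filter, and ends at -3 and 3. KO_11 is high for muscle, B cell, fat and haemoglobin lists, KO_7 for milk, and KO_12 for cornified and hypoxia lists.

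On the luminal list, genes of hormone response varied most. Of 14 genes 13 passed and 7 were among the 500: Foxa1, Pgr, Areg, Prlr, Esr1, Cited1 and Wnt4. Foxa1, the pioneer factor of oestrogen receptor sites, ran from 1.39 CPM in KO_12 and 5.84 in KO_10 through 24.9 to 43.1 in KO_3. Pgr, the progesterone receptor, ran from 0.44 CPM in KO_12 through 6.75 to 59.99 in KO_2. Areg, an EGF receptor ligand downstream of the oestrogen receptor, was highest in KO_2 at 51.7 CPM and lowest in KO_11 at 0.44. Esr1, the oestrogen receptor, ran from 2.33 CPM in KO_12 to 28.5 in KO_11. Krt8, Krt18, Epcam, Cdh1 and Gata3 were not among the 500, whereas the epithelial genes Krt7 and Cldn4, outside the list, were, and Epcam and Cdh1 lay under the trend, at -2.63 and -1.97. The pair correlation over the list was 0.25, 0.40 without the 3 libraries and 0.54 in WT.

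Interferon-stimulated genes moved together in small steps. Of 16, all passed and 6 were among the 500, 9 without the 3 libraries and 9 in the WT ranking. The stretches upstream of 2 of them are shown because the letters GAAANNGAA, part of the interferon response element, were found there on either strand. They come from RefSeq (GRCm38.p6), at chr4:156200819-156201068 (minus strand) for Isg15 and chr19:34583279-34583528 (plus strand) for Ifit3, and capitals mark the matches, 3 overlapping ones in Isg15 and 3, on the other strand, in Ifit3.
Isg15: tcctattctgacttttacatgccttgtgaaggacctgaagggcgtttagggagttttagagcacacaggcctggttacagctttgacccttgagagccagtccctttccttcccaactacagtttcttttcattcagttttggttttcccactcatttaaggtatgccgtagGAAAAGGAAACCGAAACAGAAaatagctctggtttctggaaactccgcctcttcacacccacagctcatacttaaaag
Ifit3: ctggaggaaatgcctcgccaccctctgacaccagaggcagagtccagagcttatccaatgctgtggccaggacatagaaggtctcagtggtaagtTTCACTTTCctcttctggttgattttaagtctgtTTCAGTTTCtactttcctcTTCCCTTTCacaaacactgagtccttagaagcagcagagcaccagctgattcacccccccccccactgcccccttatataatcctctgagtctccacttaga
These letters were in 8 of the 12 interferon-stimulated genes with a RefSeq promoter (Cxcl10, Cxcl9, Gbp2, Ifit1, Ifit3, Isg15, Oas1a and Rsad2) and in 7.13% of all promoters of that length. They were not in the 250 bases before Ifi44, Ifit2, Irf7 and Oasl2.

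Ifit3, an antiviral protein induced by type I interferon, ran from 27.8 CPM in KO_7 and 32.5 in KO_2 through 97.2 to 202 in KO_4. Isg15, a ubiquitin-like modifier, ran from 33.3 CPM in KO_2 and 36.2 in KO_7 through 88.6 to 208 in KO_12. KO_2 and KO_7 were thus the 2 lowest for both genes. On the whole list the score was 0.75 in KO_4 and -1.16 in KO_2. The median pair correlation was 0.81, 0.86 without the 3 libraries and 0.90 in WT, and the highest WT library had 484 CPM of Ifit3. The 6 among the 500 were Ifit3, Isg15, Ifi44, Rsad2, Oasl2 and Usp18. Immediate early genes, which respond within minutes to stress and handling, had 3 of 12 among the 500, 6 without the 3 libraries and 0 in WT. Fos, a subunit of the factor AP-1, ran from 43.0 CPM in KO_10 through 79.0 to 423 in KO_2, and Fosb, a related subunit, from 2.09 CPM in KO_10 to 65.6 in KO_9 and 55.8 in KO_2.

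Several programmes had no gene among the 500. They were proliferation (13 genes passed), the respiratory chain (14), cholesterol synthesis (14), endothelium (12), amino acid and unfolded protein stress (11), heat shock (8), circadian clock (12) and Schwann cell genes (7), with MHC class II (7), mast cell (5), cytotoxic (7) and dendritic cell (7) genes. The share over all genes was 3.56%, so lists this short can hold none of the 500 without varying less than other genes. Their median excess ran from 0.19 (cholesterol synthesis) to 2.28 (mast cell), against 0.01 over all genes. Only Schwann cell genes were lower, at -1.14. Mki67, the proliferation marker, ran from 215 CPM in KO_3 through 312 to 454 in KO_2 and its excess was 0.93. Respiratory chain genes were still linked: their median pair correlation was 0.90 with all 12 libraries, 0.46 without the 3 and 0.37 in WT. The list scored 0.84 in KO_12, 0.35 in KO_11 and at most -0.01 in the other 10. Ndufb8 of complex I was at 249 CPM in KO_12, 175 in KO_11 and 113 to 147 in the rest. MHC class II genes correlated at 0.90 (0.91 without the 3, 0.92 in WT), with H2-Aa from 166 CPM in KO_12 to 642 in KO_11.

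**Figure D4:**
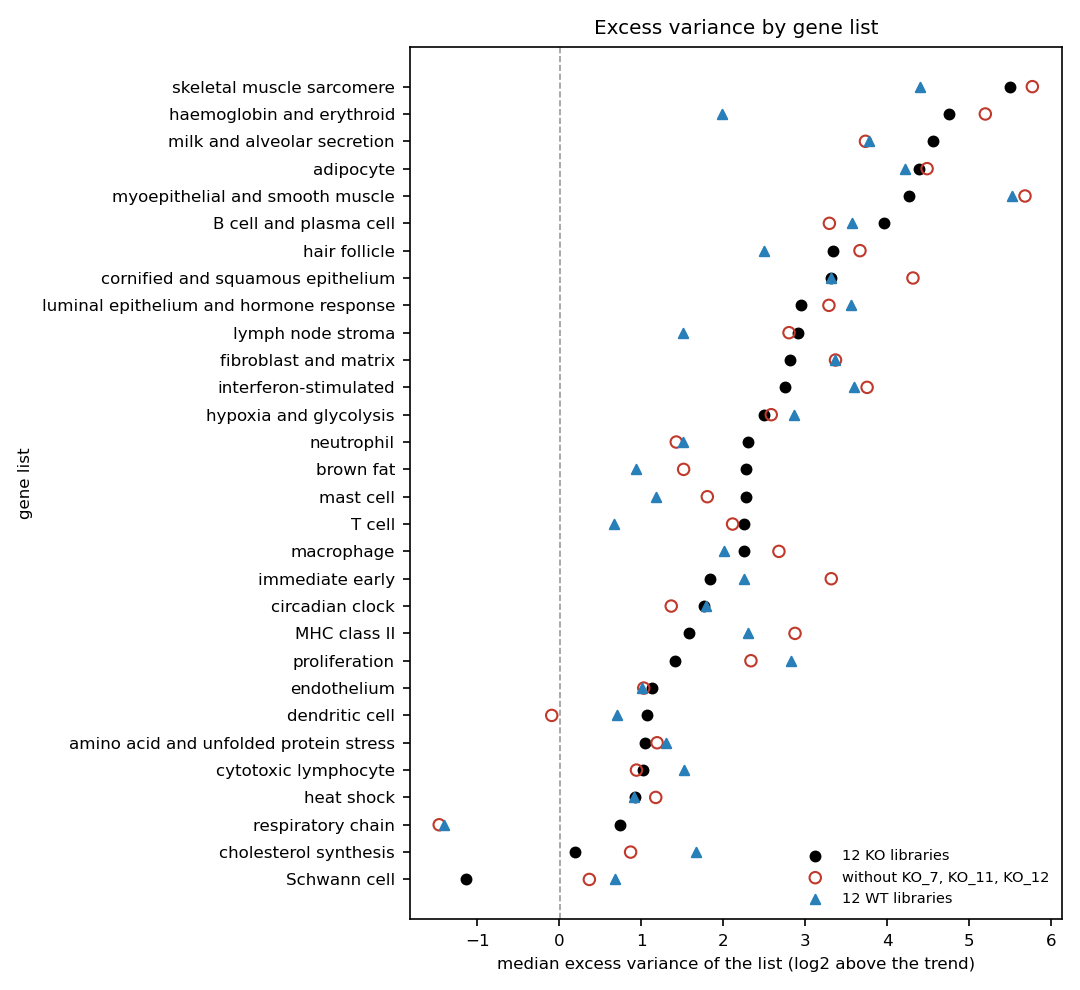
Median excess variance of each list (horizontal, log2 above the trend) in the 12 libraries labelled KO (black), without KO_7, KO_11 and KO_12 (open red) and in the 12 WT libraries (blue triangles). The dashed line is the median over all genes that passed, and salivary genes, with 2 passing, are left out. Muscle is at 5.50, 5.77 and 4.40, and haemoglobin at 4.75, 5.20 and 1.99.

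Grouping the 500 genes by their correlation over the 12 tumours, with no use of the lists, gave 8 groups of at least 10 genes. The largest held 134 genes led by Fabp4, Car3, Cfd, Adipoq and Myh11, so fat and smooth muscle genes lay together, and it was highest in KO_11 and lowest in KO_12. In WT its pairs correlated at a median of 0.57, and 70 of the 131 that passed there were among the WT 500 (53.4%). That was near the share over all of the KO 500 that passed the WT filter, 52.6%. Without the 3 libraries it came apart: 51 of its genes lay in a group of 126 led by Myh11, Cnn1 and Btn1a1, and 37 in a group of 51 led by Cfd, Fabp4 and Car3. The WT pair correlations of those groups were 0.44 and 0.48. A group of 73 genes led by the muscle genes Myh4, Acta1 and Atp2a1, which also held the fat genes Lpl, Lipe, Cidea and Cox8b and the hair gene Krt71, had a WT pair correlation of 0.58. It shared 43 genes with its counterpart of 74 without the 3 libraries, whose WT pair correlation was 0.19. That counterpart also held genes outside muscle, among them Gabra4, Krt6a, Mt2 and Cldn4. The muscle list by itself had a WT pair correlation of 0.94. Since correlation chose the groups, their own pair correlations are no test, and the WT values are the independent reading.

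The next 2 groups had their extreme in KO_12. One of 75 genes joined the milk genes Csn2, Csn1s1, Csn1s2a and Glycam1 with Mt2, S100a8 and Krt79, and scored 2.63 in KO_12 and 1.45 in KO_7. It also held the hypoxia genes Vegfa, Ndrg1, Adm, Pgk1, Slc2a1 and Bnip3 and the keratin genes Krt6a, Krt14 and Krt17. Its median pair correlation was 0.68 with all 12 libraries, 0.30 without the 3 and 0.20 in WT. The other, of 71 genes led by Zbed6, Mup5, Tlcd4, Hepacam2 and Cldn2, scored -2.45 in KO_12. The same values for it were 0.72, 0.25 and 0.25. Cldn2, a tight junction protein, was at 7.56 CPM in KO_12 and 44.7 to 114 in the other 11. Prlr, the prolactin receptor, was at 36.9 CPM in KO_12 and 133 to 326 elsewhere.

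Smaller groups held the hormone and interferon genes. A group of 30 led by Dmbt1, Glul, Slc7a2, Gpx3 and Gabra4 held Foxa1, Pgr, Esr1, Cited1 and Wnt4. It scored 1.69 in KO_2 and 1.03 in KO_3, and -2.13 in KO_12 and -1.75 in KO_10, with a pair correlation of 0.67 without the 3 libraries and 0.45 in WT. In WT 22 of its 30 genes were among the 500 (73.3%). The share was 52.6% over the KO 500 that passed the WT filter and 3.57% over all genes ranked in both groups of libraries. Dmbt1, a secreted mucosal scavenger protein, ran from 0.23 CPM in KO_9 through 25.6 to 54.1 in KO_4. The interferon group of 12, led by Oas2, Apol9a, Apol9b, Gbp3 and Ifit3, had a WT pair correlation of 0.91, and 11 of 12 were in the WT 500. Groups of 13 were led by Btn1a1, Lao1 and H19, highest in KO_7 (2.83), and by Slpi, Ptgs2 and Adamts1, highest in KO_9 (1.34). Their WT pair correlations were 0.14 and 0.39. Without the 3 libraries a group of 13 led by the globin gene Hbb-bs and a group of 10 led by Sik1, Fosb and Dusp1 appeared, both highest in KO_9, with WT pair correlations of -0.01 and 0.33. A group of 54 led by 2310057J18Rik, Pip and Hhipl2 was high in KO_9 and KO_10, with a WT pair correlation of 0.11. It held 13 genes of chromosome 3, which holds 692 of the 14051 genes ranked. The median centred log2 CPM of chromosome 3 genes was 0.38 in KO_9, 0.35 in KO_10 and 0.12 in KO_6, the 3 highest, with an SD of 0.19 over the 12 libraries against 0.03 in WT. Its part in that group was not tested.

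KO_11 and KO_12 took much of the spread but not all of it, and KO_7 took less than KO_9 and KO_10. KO_11 gave 19.3% of the summed squared deviations over the 500 genes, KO_12 16.3%, KO_9 13.6%, KO_10 13.1% and KO_7 7.76%, with 2.29% to 5.32% in each of the other 7. Over all genes that passed the order changed: KO_12 gave 26.1%, KO_11 15.1%, KO_9 12.4%, KO_10 8.32% and KO_7 7.37%. Of the 500 genes, 299 (59.8%) were highest in KO_7, KO_11 or KO_12, which are 3 of the 12 libraries. KO_11 was highest for 176, KO_12 for 80 and KO_7 for 43, fewer than KO_4 (56) and KO_9 (54). The lowest value lay in KO_12 for 179 genes and in KO_9 for 124. The first principal component of the 500 genes held 40.1% of their variance and ran from KO_9 and KO_10, at -34.9 and -28.4, to KO_11 at 45.5. The second held 22.96%, with KO_12 at its end at 41.8. Without the 3 libraries the first component held 47.3%, and in WT 31.7%. Each share is over the 500 genes ranked in those libraries, and the first of them over 9 libraries, so the 3 shares are not like for like. The median SD of log2 CPM over 13862 genes ranked in both groups of libraries was 0.32 in the 12 KO libraries, 0.22 without the 3 and 0.28 in the 12 WT libraries.

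**Figure D5:**
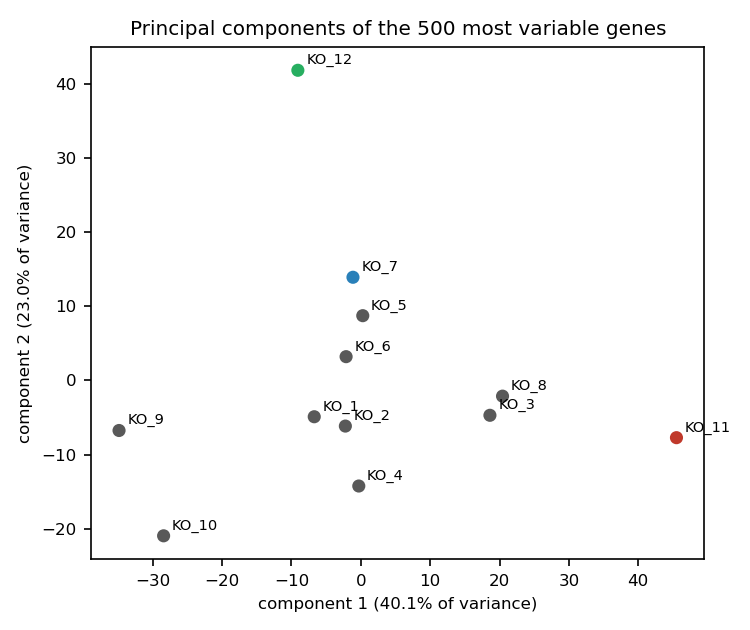
First and second principal components of the 500 genes of largest excess (40.1% and 22.96% of their variance) in the 12 libraries labelled KO, 1 point each. KO_11 lies at the right, KO_9 and KO_10 at the left, KO_12 at the top.

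A marker gene for each of 12 programmes was correlated with the others over the 12 tumours, 66 pairs in all. On Pearson r, 0 pairs passed a Benjamini-Hochberg adjusted p of 0.05 (permutation test, two-sided) and 17 had an unadjusted p under it. On Spearman rho, 3 passed. Cd3e and Csf1r, the receptor of macrophage growth factor, correlated with r = 0.77 (permutation p = 0.00162, adjusted p = 0.068). Their rho was 0.85 (permutation p = 0.00079, adjusted p = 0.0261). Without KO_10 and KO_11, the 2 farthest on Cd3e, r was 0.90, and in WT it was 0.77. Col1a1 and Pecam1, an endothelial adhesion gene, correlated with r = 0.77 (permutation p = 0.00362, adjusted p = 0.0796), while rho was 0.87 (permutation p = 0.00066, adjusted p = 0.0261). Their r was 0.78 without KO_6 and KO_12 and 0.68 in WT. Adipoq and Pecam1 correlated with r = 0.79 (permutation p = 0.00206, adjusted p = 0.068), while rho was 0.83 (permutation p = 0.00152, adjusted p = 0.0334), with r = 0.65 without KO_11 and KO_12 and 0.09 in WT. Cd3e and Cd79a had the highest r, 0.88 (permutation p = 0.00588, adjusted p = 0.0853), with rho = 0.53 (permutation p = 0.0806, adjusted p = 0.332), and r was 0.07 without KO_10 and KO_11. That relation rested on those 2 tumours. Without KO_7, KO_11 and KO_12, 0 of the 66 pairs passed on Pearson r. There r was 0.71 for Cd3e and Csf1r, 0.80 for Col1a1 and Pecam1, and 0.88 for Adipoq and Pecam1. For Cd3e and Cd79a it was also 0.88, with KO_10 still among the 9 libraries. Cd3e and Cd79a failed the filter and were kept for these pairs only.

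Whether the KO tumours vary more than the WT tumours was asked gene by gene, with limma's moderated test of absolute deviations from the group median over 14298 genes. At an adjusted p of 0.05 limma called 0 genes (0%), and 508 had an unadjusted p under 0.05, of which 177 were wider in KO. On DESeq2 variance-stabilised values limma also called 0, with 502 at an unadjusted p under 0.05. Both counts are a smaller share of the 14298 genes than 0.05, which such a threshold gives on average when no gene differs. Igf1r, the receptor of insulin-like growth factor 1, had the lowest adjusted p, 0.672 in limma, with a mean deviation of 0.12 log2 units in KO and 0.47 in WT. Sh3glb1, a membrane-curving protein gene, came next, with 0.23 in KO and 0.04 in WT (adjusted p = 0.927 in limma). The median deviation over genes was 0.22 in KO and 0.21 in WT, and 52.4% of genes were wider in KO. Without KO_7, KO_11 and KO_12 the KO median was 0.16 and 25.6% of genes were wider, again with 0 calls. Without KO_12 alone the values were 0.18 and 32.4%, so the order of the 2 groups in median spread turned with that library. Without KO_9 or KO_11 alone the share was 49.1% or 49.0%. These settings left out KO libraries only. With 1 WT library left out instead, the share ran from 51.5% (without WT_15) to 60.8% (without WT_23). The test found few of the genes whose spread had been widened in simulated counts, so 0 calls do not show that the groups vary alike. The rankings overlapped: of 477 of the KO 500 that passed the WT filter, 251 (52.6%) were among the WT 500, which held 3.57% of all genes ranked in both.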

How the data were processed

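mRNA libraries of 24 tumours were made with a stranded kit, per the labels' protocols. The deposited values are whole-number counts of reads per gene, made by the authors on GRCm39 with featureCounts (2.0.0 in the file headers). STAR and Subread, without versions, stand in the submitters' processing notes. The headers give no strand option, so a gene and its antisense or overlapping partner can share reads. The authors' own table of comparisons was not used here. The files hold 46318 gene IDs, of which 44749 found a symbol in a RefSeq gene table (GRCm38.p6). All 66 pairs of KO libraries differed by more than sampling noise (chi-square over its degrees of freedom at least 25.9).

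Counts were scaled by TMM in edgeR 4.0.16 (R 4.3.3) to log2 CPM with a prior count of 2. CPM printed for a gene are on TMM-scaled library sizes. Genes needed 1 CPM in at least 6 of 12 libraries. Excess is log2 variance minus a lowess trend (span 0.3). Groups came from average linkage on 1 minus Pearson r at a height of 0.5, with at least 10 genes. Spread was tested with limma 3.58.1, and correlations by 1e+05 resamples, or all orders for 9 libraries. The scripts were tested on simulated data. Alternatives were RLE scaling, prior count 0.5, other filters and spans, DESeq2 1.42.0 variance-stabilised values, edgeR dispersions, other list sizes, thresholds and deviations, and leaving out libraries.

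The members, lists and tests were chosen with earlier results of these data known. Named genes were Nr0b2, the 20 of largest excess, the 10 of largest excess without KO_7, KO_11 and KO_12, up to 6 per list, 12 markers, 5 per group and the 10 smallest p in each direction of the spread test. Genes outside that rule (among them Epcam, Cdh1, Krt8, Krt18, Csn3, Elf5, Mki67, Prlr, Ndufb8, H2-Aa and list genes that failed the filter) were named after their values were seen.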

Additional observations from a re-analysis of the deposited data

How the results depend on the processing

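Of the 500 genes of largest excess, 341 remained without KO_7, KO_11 and KO_12, and 391 (without KO_12) to 488 (without KO_6) when single libraries were left out. The first component's share, 40.1%, was 47.3% without the 3 libraries, 35.8% with no filter, and 31.9% (without KO_11) to 49.4% (without KO_12) with 1 library left out. Each setting ranked its own 500 genes. The overlap with the WT ranking, 52.6%, was 44.2% for lists of 200 genes. With no filter, limma called 15 genes in the spread test, 8 wider in KO, and 0 under every other alternative and without any single library. By Spearman rho 3 marker pairs passed, and leaving out single libraries gave 0 to 3 on Pearson r (1 without KO_4, 3 without KO_7, 2 without KO_10). Of the 20 leading genes, 8 were in the 500 when 1 CPM was required in all 12 libraries, which by construction removes genes near 0 in any tumour, and 20 in every other ranking run. List counts changed by more than 1.5 times in 44 of 600 list and setting pairs. T cell genes among the 500 ran from 0 to 7, the most by edgeR dispersion. Depth limits genes near 3 reads in a library. No paired analysis was possible because the replicate numbers of the KO titles, 1 to 12, are not used again among the WT titles, 13 to 24.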
